A study of Homo sapiens with 15 samples.

Results

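Lung mesenchyme transcription factors were followed in MRC-5, a human fetal lung fibroblast cell line in wide use. The 10 genes were listed by name: the T-box genes TBX2, TBX3, TBX4 and TBX5, the forkhead gene FOXF1, the basic helix-loop-helix (bHLH) genes TCF21, TWIST1 and TWIST2, and the homeobox genes MEOX1 and MEOX2. All 10 were found among the 57272 genes of the count table, and 8 of them passed the filter on low counts and were tested. RNA was sequenced from 15 libraries in 5 conditions with 3 replicates each, to compare replicative senescence and changed dosage of the telomere protein TRF2 and of lamin B1. Every culture was grown at 5% oxygen.

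Young cells were taken at population doubling 30. The young control cells carried the empty lentiviral vector pWPIR-GFP and received a control siRNA. Young TRF2 cells carried pWPIR-GFP-TRF2, which overexpresses TRF2, with the same control siRNA. Young siLMNB1 cells carried the empty vector and received an siRNA against LMNB1, the gene of lamin B1. Senescent cells were infected with the empty or the TRF2 vector at the pre-senescent stage, grown until division had stopped, and then transfected with the control siRNA. In the study's methods the TRF2 cells stopped at a later population doubling than the cells with the empty vector, so in the senescent state the vector and the number of divisions cannot be told apart. The 6 senescent libraries, and none of the 9 young ones, carry a label that they were taken from a previous deposit and analysed again, so that effects of the deposit and of senescence cannot be told apart. All libraries come from a single cell line, and the labels do not say whether replicates were separate cultures. The study describes triplicates, and biological replicates for its counts of young and senescent cells, without saying how they were separated. With a single cell line, p-values measure only the spread between these samples.

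These factors build the connective tissue side of the developing lung. TBX4 and TBX5 act in the mesenchyme of the early lung bud, where they promote branching, while TBX2 and TBX3 are mainly repressors that keep embryonic mesenchyme dividing by holding down genes of cyclin-dependent kinase (CDK) inhibitors. FOXF1 is a target of hedgehog signalling that is needed in lung mesenchyme and in the capillary bed. TCF21 marks fibroblast progenitors, TWIST1 and TWIST2 are bHLH repressors of mesenchymal cells known for bypassing senescence when in excess, and MEOX1 and MEOX2 are homeobox factors of somites, vessels and mesenchyme. bHLH factors bind E-boxes, which read CANNTG.

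Promoter windows from RefSeq (GRCh38.p14, 250 bases before to 50 after an annotated start) matched 5 of the 10 genes with 6 windows, 2 of them for TBX5. The 3 windows shown belong to genes that moved with siLMNB1. Capitals mark every E-box. The TCF21 window lies at chr6:133888863-133889162 on the plus strand.
TCF21: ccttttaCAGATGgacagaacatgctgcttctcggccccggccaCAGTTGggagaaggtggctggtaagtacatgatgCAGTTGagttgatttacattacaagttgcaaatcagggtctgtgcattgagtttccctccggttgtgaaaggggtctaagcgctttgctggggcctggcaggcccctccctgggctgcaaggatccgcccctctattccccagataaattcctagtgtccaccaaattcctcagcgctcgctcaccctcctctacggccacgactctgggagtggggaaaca
The TWIST2 window lies at chr2:238847835-238848134 on the plus strand.
TWIST2: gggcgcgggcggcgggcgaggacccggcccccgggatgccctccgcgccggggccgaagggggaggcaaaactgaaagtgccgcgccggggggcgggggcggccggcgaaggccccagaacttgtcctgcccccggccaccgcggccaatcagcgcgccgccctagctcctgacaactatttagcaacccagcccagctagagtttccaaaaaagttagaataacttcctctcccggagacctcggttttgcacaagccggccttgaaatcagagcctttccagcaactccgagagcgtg
The TBX5 window lies at chr12:114407963-114408262 on the minus strand.
TBX5: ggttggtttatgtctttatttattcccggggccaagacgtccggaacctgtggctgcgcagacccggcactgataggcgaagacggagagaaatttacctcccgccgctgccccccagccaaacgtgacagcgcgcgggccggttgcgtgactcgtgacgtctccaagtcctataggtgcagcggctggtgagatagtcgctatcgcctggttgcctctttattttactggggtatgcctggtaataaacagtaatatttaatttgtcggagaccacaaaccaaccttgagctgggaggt
The TCF21 window held 3 E-boxes, with 54.7% G or C and 9 CpG sites. The TWIST2 window held no E-box, with 66.7% G or C and 29 CpG sites. The TBX5 window shown held no E-box, with 54.3% G or C and 21 CpG sites. It was chosen of the 2 because the annotated start of the antisense gene TBX5-AS1 (position 114408131) falls inside it. The other TBX5 window (chr12:114408393-114408692) held 1 E-box and no TAAACA. Of 35116 promoter windows of this length, 68.7% held CANNTG on either strand, the median G or C content was 58.7% and the median number of CpG sites was 14. The forkhead letters TAAACA, searched on both strands, occurred once in the TBX5 window shown and in 12.3% of all windows. The letters GGTGTG, a T-box core motif, occurred in none of the 3 windows on either strand and in 16.8% of all windows.

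The genes lie in pairs or alone on 6 chromosomes (GENCODE 44, GRCh38). TBX2 (ENSG00000121068, chr17:61399843-61409466, plus strand) and TBX4 (ENSG00000121075, chr17:61452404-61485110, plus strand) are neighbours on chromosome 17, where MEOX1 (ENSG00000005102, chr17:43640389-43661922, minus strand) also lies. TBX5 (ENSG00000089225, chr12:114353911-114408442, minus strand) and TBX3 (ENSG00000135111, chr12:114670255-114684175, minus strand) are neighbours on chromosome 12. FOXF1 (ENSG00000103241) is at chr16:86510527-86515422 on the plus strand and TCF21 (ENSG00000118526) at chr6:133889113-133895553 on the plus strand. MEOX2 (ENSG00000106511, chr7:15611212-15686683) and TWIST1 (ENSG00000122691, chr7:19020991-19117636) lie on the minus strand of chromosome 7, and TWIST2 (ENSG00000233608, chr2:238848032-238910534) on the plus strand of chromosome 2.

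The strand setting of the counting is not given in the sources used here, so reads on exons shared with an antisense gene cannot be assigned to either strand. For TCF21, 23.5% of exonic bases (863 bases) are shared with the antisense gene TARID, which was itself at 0.112 to 0.706 CPM (counts scaled to library size with TMM normalization). For TBX5 the shared part is 7.02% (TBX5-AS1), for TWIST1 7.06%, for TBX3 3.29% (TBX3-AS1) and for TBX2 0.460%. The exons of the other members overlap no other gene.

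Total counts lay between 26725885 and 43116046 per library. LMNB1 fell with its siRNA, from 58.6 to 61.0 CPM in the young control cells to 2.36 to 2.91 (log2 fold change -4.48), and lay at 2.68 to 5.65 in the senescent libraries. TERF2, the gene of TRF2, was at 21.9 to 26.0 CPM without the TRF2 vector, at 128 to 307 in young TRF2 cells and at 209.9 to 285 in senescent TRF2 cells. All 12 fibroblast markers examined reached 1 CPM. Of 11 epithelial markers 4 (FOXJ1, NKX2-1, SCGB1A1 and SFTPC) were at 0 in all libraries and 4 others (CLDN4, CLDN7, KRT14 and KRT5) reached 1 CPM, the highest at 7.29. The 11 summed to 13.8 CPM in replicate 1 of the young control cells and to at most 2.75 in every other library. In some library 3 of 8 endothelial, 2 of 8 leukocyte, 1 of 5 mesothelial and 6 of 8 smooth muscle markers reached 1 CPM. The highest levels were 69.3, 3.50, 40.5 and 285 CPM in that order. In the senescent libraries log2 counts rose with the G or C content of exons, by 0.46 to 0.82 per 10 percentage points relative to the young control mean, against -0.0049 to 0.13 in the 9 young libraries. The steepest library was replicate 3 of the senescent empty-vector group.

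FOXF1 was the most abundant member per length, and both MEOX genes were at or near 0. In RPKM (CPM per kilobase of exon), young control cells had 65.2 ± 1.64 for FOXF1 (SD, n = 3) and 30.1 ± 1.01 for TBX2. TBX3 at 17.7 (17.2 to 18.2) and TWIST2 at 17.1 (16.6 to 17.4) overlapped between libraries. Their order also depends on the transcript length used, since RPKM by the longest transcript gave 27.2 for TWIST2 and 22.3 for TBX3. TCF21 at 7.74 (7.10 to 8.79) was next, above TBX5 at 6.49 (6.09 to 6.86) and TWIST1 at 5.17 (4.90 to 5.73), and the ranges of these 3 did not overlap. TBX4 stood far below them at 0.200 RPKM.

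**Figure D1:**
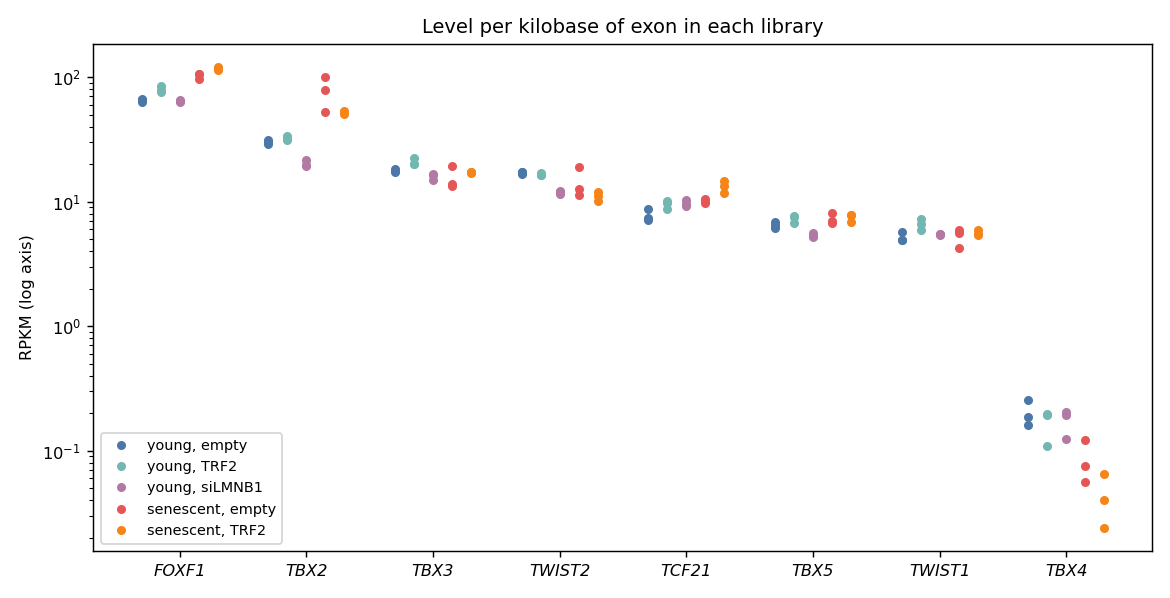
RPKM (CPM per kilobase of exon, log axis) of the 8 tested members, with a point for each library coloured by condition. FOXF1 is highest in young control cells (mean 65.2 RPKM) and TBX4 is far below the others (0.200 RPKM).

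MEOX1 had a single read over the 15 libraries, in replicate 3 of young siLMNB1 cells, with 14 libraries at 0. MEOX2 had 33 reads, with 5 libraries at 0 and 3 libraries above 3 reads. A count of 0 allows up to 3 reads in a library, which covers counting error only. Neither gene was tested and no fold is given: at this depth their levels were near the limit of detection in every condition.

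With the empty vector TBX2 was the member that differed most in CPM between senescent and young cells. Young control cells held 177, 184 and 189 CPM, and senescent cells with the empty vector 319, 479 and 606. The groups did not overlap, but the senescent libraries spread widely (468 ± 143, SD, n = 3, against 183 ± 6.14). TBX2 rose 2.55-fold (log2 fold change 1.35, SE 0.15, 95% interval 1.03 to 1.68, edgeR quasi-likelihood test, adjusted p = 1.1e-06). With TRF2 the rise was 1.61-fold, from 189, 205 and 195 CPM in young cells to 319, 306 and 325 in senescent cells (log2 0.69, SE 0.15, adjusted p = 9.2e-04). Both tests used 1 estimate of the spread per gene, shared by all 15 libraries. The SD of TBX2 was 30.6% of the mean in senescent empty-vector cells and 3.13% to 6.26% in the other conditions. Its SE of 0.15 therefore does not measure the spread of the senescent empty-vector group alone.

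TBX2 is a GC-rich transcript, and its size of change moved with the correction for GC content. Its exons hold 62.2% G or C, above 93.0% of the genes tested (median 47.6%). With offsets for GC content and exon length in each library, the rise in cells with the empty vector was 0.44 on the log2 scale (adjusted p = 0.0015). With TRF2 the same offsets left -0.0098 (adjusted p = 0.945), so the call was lost. In the senescent empty-vector group the order of the 3 libraries by TBX2 level was also their order by GC slope (0.46, 0.50 and 0.82 log2 per 10 points). In the senescent TRF2 group the order was reversed, with slopes of 0.480, 0.485 and 0.499 at 325, 319 and 306 CPM. The part of the slope in the TBX2 levels was not tested. Without replicate 3 of the senescent empty-vector group the rise with the empty vector was 1.10 on the log2 scale (adjusted p = 5.3e-08).

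**Figure D2:**
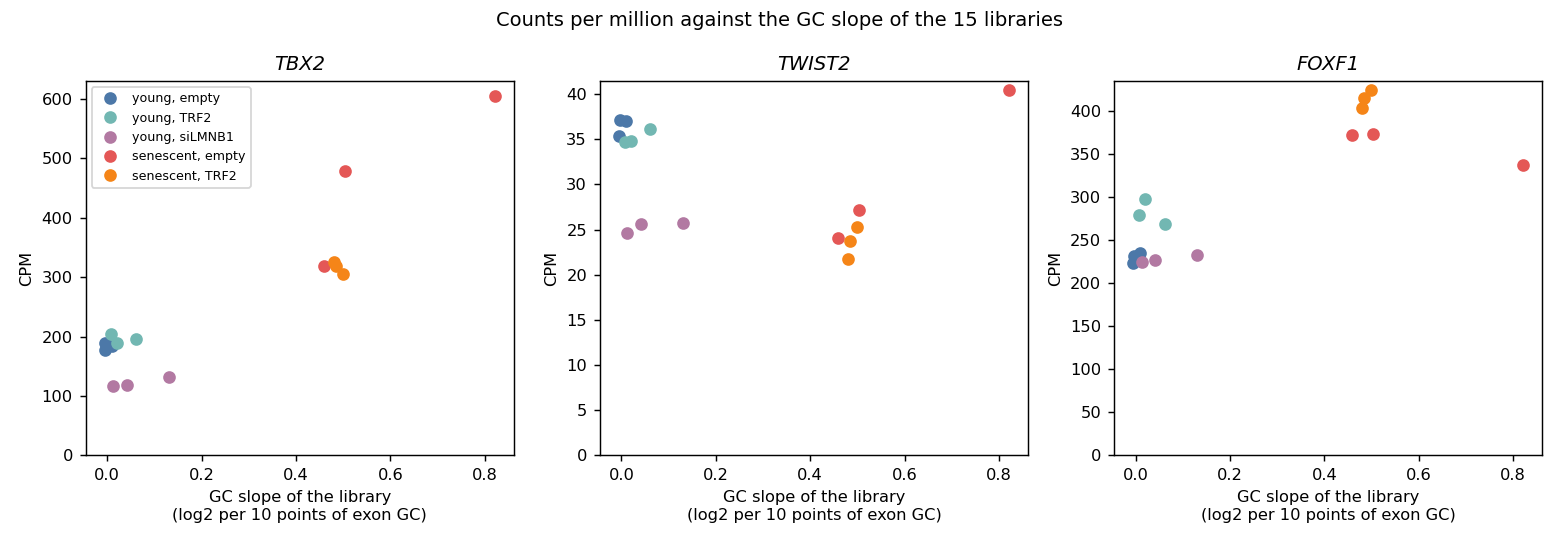
CPM of TBX2, TWIST2 and FOXF1 (y axes from 0, 1 panel per gene) against the GC slope of each library (x axis, log2 counts per 10 percentage points of exon G or C), with a point for each of the 15 libraries coloured by condition. The senescent empty-vector library at a slope of 0.82 holds the highest TBX2 level (606 CPM) and the highest TWIST2 level (40.5 CPM), while for FOXF1 it is the lowest of the 6 senescent libraries (337 CPM).

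TBX3, the closest relative of TBX2, did not follow it. Its 3 young control libraries lay at 102, 106 and 108 CPM and the senescent ones with the empty vector at 80.1, 114 and 82.1, which overlap (log2 -0.19, SE 0.11, 95% interval -0.43 to 0.04, adjusted p = 0.134). With TRF2 the levels were 120.4, 133 and 120.1 CPM in young and 103, 101 and 102 in senescent cells, which do not overlap, and TBX3 fell by 0.28 on the log2 scale (SE 0.11, adjusted p = 0.0368). That call was lost without replicate 2 or 3 of the young TRF2 cells or any replicate of the senescent TRF2 cells (adjusted p up to 0.116). Without replicate 2 of the senescent empty-vector group, its highest library, TBX3 also fell with the empty vector, by 0.38 (adjusted p = 8.1e-04). With the offsets TBX3 fell in both, by 0.32 (adjusted p = 0.0135) with the empty vector and by 0.39 with TRF2.

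TBX4 was scarce and became scarcer. Its counts were 29, 22 and 20 reads in young control cells and 8, 6 and 15 in senescent cells with the empty vector, and 16, 26 and 25 against 5, 3 and 9 with TRF2. Neither pair of groups overlapped in CPM. TBX4 fell by 1.23 on the log2 scale with the empty vector (SE 0.42, adjusted p = 0.0168) and by 1.91 with TRF2 (SE 0.45, adjusted p = 0.0017). The first of these calls was lost without replicate 1 of the young control cells (adjusted p = 0.0704) or replicate 2 of the senescent cells (adjusted p = 0.0686). TBX5, on the other hand, lay at 27.1, 30.5 and 29.0 CPM in young and 31.2, 36.3 and 29.9 in senescent cells with the empty vector, which overlap. Its log2 difference was 0.17 (95% interval -0.03 to 0.37, adjusted p = 0.127), and 0.04 with TRF2 (95% interval -0.16 to 0.24, adjusted p = 0.728).

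FOXF1 and TCF21 rose in senescent cells with either vector. FOXF1 lay at 231, 234 and 223 CPM in young control cells and at 372, 373 and 337 in senescent cells with the empty vector, without overlap. It rose 1.57-fold (log2 0.65, SE 0.07, adjusted p = 8.2e-07). With TRF2 it went from 298, 279.7 and 269 CPM to 415, 425 and 403, a rise of 1.47-fold (log2 0.55, SE 0.07, adjusted p = 5.6e-06). TCF21 went from 27.02, 32.3 and 26.1 CPM to 38.4, 36.1 and 37.5 with the empty vector (log2 0.39, SE 0.10, adjusted p = 0.0039). With TRF2 it went from 37.2, 32.4 and 35.7 CPM to 49.2, 54.0 and 42.97 (log2 0.47, SE 0.10, adjusted p = 9.3e-04). Neither gene's groups overlapped in either comparison, and all 4 calls remained with the offsets (FOXF1 0.53 and 0.49, TCF21 0.36 and 0.47 on the log2 scale).

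TWIST1 and TWIST2 did not pass the test in senescent cells with the empty vector. TWIST1 was at 11.4, 9.78 and 9.79 CPM in young and 11.3, 8.41 and 11.8 in senescent cells (log2 0.02, 95% interval -0.25 to 0.29, adjusted p = 0.891). TWIST2 was at 37.1, 37.0 and 35.3 CPM in young and 24.0, 27.1 and 40.5 in senescent cells, where the high library is the one with the steepest GC slope (log2 -0.25, adjusted p = 0.120). Without that library TWIST2 fell by 0.53 on the log2 scale, and with the offsets by 0.71. With TRF2 TWIST2 fell from 34.8, 34.7 and 36.1 CPM to 23.7, 25.3 and 21.7 (log2 -0.58, SE 0.14, adjusted p = 0.0020). TWIST1 with TRF2 was at 14.6, 13.1 and 11.8 CPM in young and 11.8, 11.02 and 10.7 in senescent cells, and its log2 difference of -0.24 did not pass (adjusted p = 0.115). With the offsets TWIST1 fell with TRF2 by 0.39 (adjusted p = 0.0105).

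**Figure D3:**
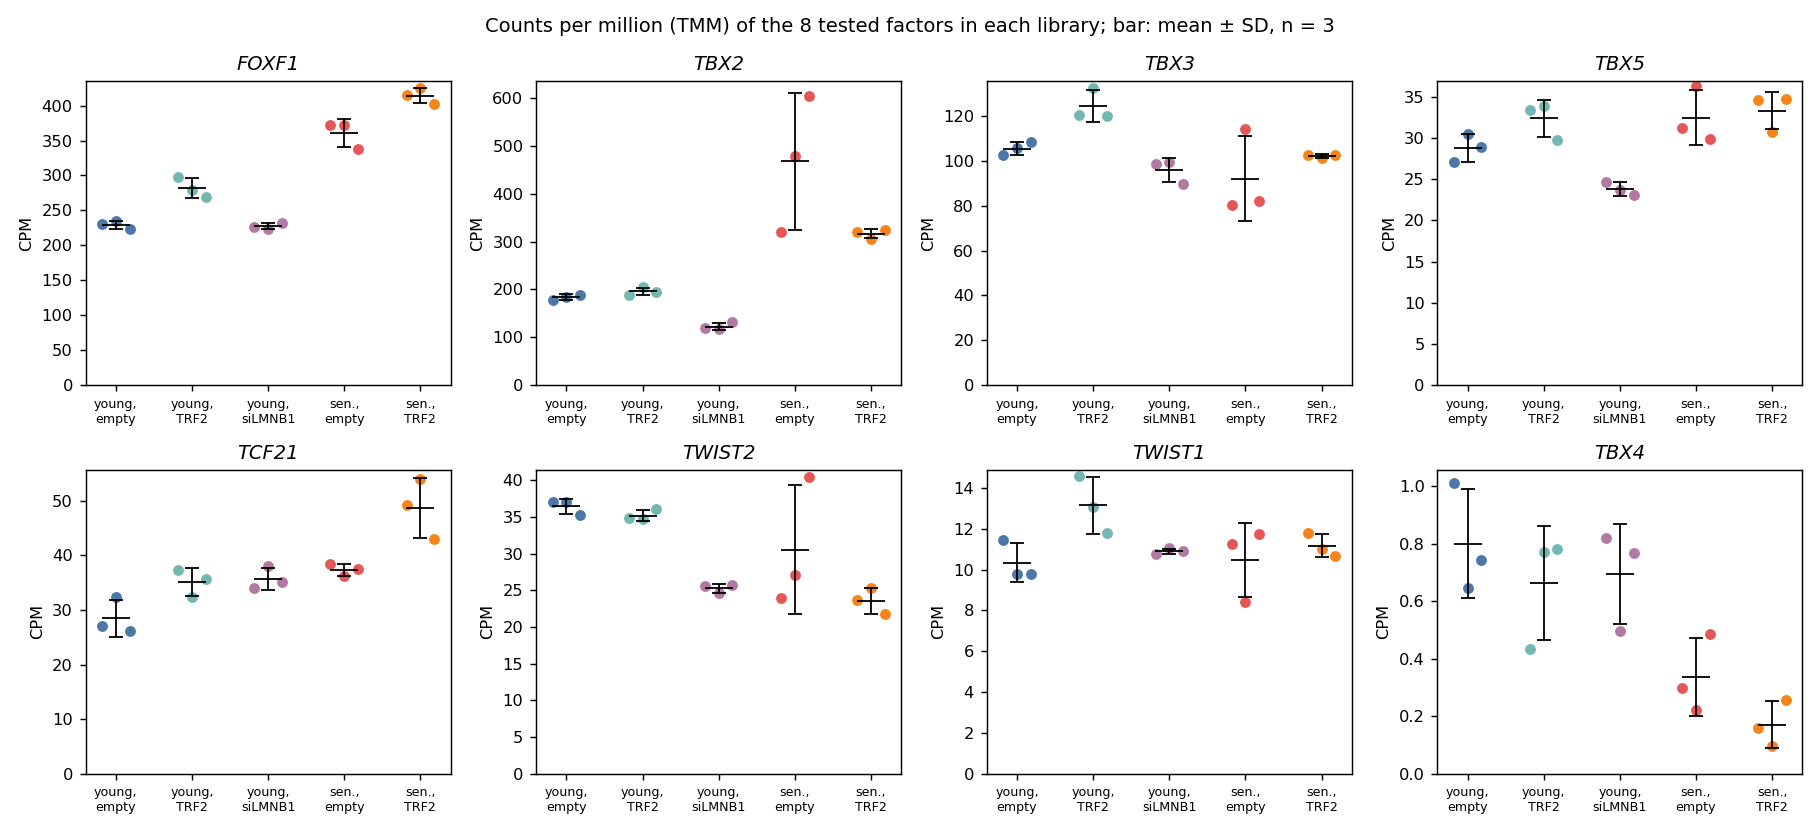
CPM (y axis, 1 panel per gene with its own scale) of the 8 tested members in the 5 conditions, with points for the 3 libraries and bars for mean and SD. TBX2 and FOXF1 are higher in both senescent groups than in all young groups, and the senescent libraries with the empty vector spread from 319 to 606 CPM for TBX2.

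In cells with the empty vector 4 of 8 members tested passed in senescence, 3 higher and 1 lower, and 64.7% of all genes tested passed (32.7% higher and 31.9% lower). Without replicate 3 of the senescent empty-vector group 5 passed, with TWIST2 added. With the study's fold cutoff of 1 on the log2 scale, 2 members (TBX2 and TBX4) and 28.5% of genes were differentially expressed genes (DEGs). With TRF2 6 of 8 passed, 3 in each direction, beside 58.3% of genes (28.2% higher and 30.1% lower), and TBX4 alone was a DEG beside 24.0%. With the offsets 6 members passed with the empty vector, 3 higher and 3 lower, beside 4276 genes higher and 4829 lower. With TRF2 the offsets also left 6 passed, 2 higher (FOXF1 and TCF21) and 4 lower (TBX3, TBX4, TWIST1 and TWIST2). The median log2 difference over the 8 members was 0.10 against 0.02 over all genes with the empty vector, and -0.10 against -0.02 with TRF2. The sum of the 10 genes was 538 to 732 CPM in young libraries and 877 to 1145 in senescent ones, most of it TBX2 and FOXF1. In these bulk samples fewer cells of a kind and less RNA per cell cannot be told apart. Proliferation genes, whose part in these differences was not tested, summed to 571 to 610.0 CPM in young control libraries and to 77.8 to 86.2 in senescent ones with the empty vector. The 5 mesothelial markers summed to 6.41 to 8.14 CPM in young and to 27.9 to 40.9 in senescent libraries. CALB2, the only one of them to reach 1 CPM, rose by 2.17 on the log2 scale with the empty vector and by 2.18 with TRF2. Of the 12 fibroblast markers 2 rose and 6 fell with the empty vector. The part of these markers in the members' differences was not tested either.

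Depletion of lamin B1 in young cells moved a different mix of members. TBX2, TWIST2 and TBX5 fell, TCF21 rose, and FOXF1 hardly differed. These 4 calls of 8 stand beside 32.5% of all genes (16.4% higher and 16.1% lower). The comparison uses the same young control libraries as senescence with the empty vector, so the values of each are given side by side only.

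TBX2 went from 177, 184 and 189 CPM to 119, 117 and 131 with siLMNB1. All 3 depleted libraries lay below all controls, and TBX2 fell by 0.58 on the log2 scale, to 0.668 of the control (SE 0.15, adjusted p = 0.0075). It was the only member to be a DEG there, beside 18.3% of genes, but its log2 difference of -0.583 only just passed the study's cutoff of 0.58 for siLMNB1. It fell short of that cutoff without a filter on low counts (-0.578) and with some libraries left out (up to -0.546). With the offsets it fell by 0.71.

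TWIST2 went from 37.1, 37.0 and 35.3 CPM to 25.6, 24.6 and 25.7, also without overlap (0.694 of the control, log2 -0.53, SE 0.14, adjusted p = 0.0083). TBX5 went from 27.1, 30.5 and 29.0 CPM to 24.7, 23.7 and 23.1 (log2 -0.28, SE 0.10, adjusted p = 0.0362). TCF21 went the other way, from 27.02, 32.3 and 26.1 CPM to 34.1, 38.0 and 35.1 (log2 0.32, SE 0.10, adjusted p = 0.0249). For TBX5 and TCF21 the groups did not overlap either, but both calls depended on single libraries: that of TCF21 was lost without replicate 1 or 3 of the controls or replicate 2 or 3 of the depleted cells, and that of TBX5 without replicate 2 or 3 of the controls or any replicate of the depleted cells.

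FOXF1, which rose in senescence, lay at 226, 224 and 232 CPM with siLMNB1 and 231, 234 and 223 without. Its log2 difference was -0.01 with a 95% interval of -0.16 to 0.14 (adjusted p = 0.916), whose upper bound lies below the rise of 0.65 seen in senescent cells. TBX3 lay at 98.4, 99.5 and 89.6 CPM, below all 3 controls, yet did not pass (log2 -0.14, 95% interval -0.37 to 0.10, adjusted p = 0.368). TWIST1 (log2 0.08, adjusted p = 0.676) and TBX4 (log2 -0.20, adjusted p = 0.727) overlapped with the controls. The median of the 8 members was -0.17 on the log2 scale, against 0.04 over all genes.

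TRF2 overexpression in young cells moved no member past the threshold. Over all 15799 genes 28 passed (0.177%) by edgeR's quasi-likelihood test, and 1526 genes, among them 4 members, had an unadjusted p below 0.05. FOXF1 was at 298, 279.7 and 269 CPM with TRF2, above all 3 controls (log2 0.30, SE 0.07, adjusted p = 0.138). TCF21 at 37.2, 32.4 and 35.7 CPM (log2 0.30, adjusted p = 0.334), TWIST1 at 14.6, 13.1 and 11.8 CPM (log2 0.35, adjusted p = 0.354) and TBX3 at 120.4, 133 and 120.1 CPM (log2 0.24, adjusted p = 0.510) also lay above all controls. For TCF21 the gap was narrow, with 32.38 CPM in the lowest TRF2 library and 32.33 in the highest control. The share of all genes separated in this way was not counted, so these separations are not read as a result. FOXF1 was called by DESeq2's Wald test (adjusted p = 0.0058) and by edgeR without replicate 3 of the senescent empty-vector group (adjusted p = 0.0125), and FOXF1 and TBX3 were called with only these 6 libraries fitted. The 8 members had a median of 0.20 on the log2 scale, against 0.01 over all genes.

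In senescent cells TRF2 went with less TBX2 and more TCF21. These 2 of 8 members passed, beside 11.3% of all genes (4.87% higher and 6.41% lower). TBX2 was at 319, 479 and 606 CPM with the empty vector and at 319, 306 and 325 with TRF2, so the groups overlapped and the difference lay in replicates 2 and 3 of the empty vector. TBX2 fell by 0.56 on the log2 scale (SE 0.15, adjusted p = 0.0253), but without replicate 3 by 0.33 only, which did not pass (adjusted p = 0.0601). TCF21 was at 38.4, 36.1 and 37.5 CPM with the empty vector and at 49.2, 54.0 and 42.97 with TRF2, without overlap, and rose by 0.38 on the log2 scale (SE 0.10, adjusted p = 0.0261). The call of TBX2 was also lost without replicate 2 of the empty vector or any TRF2 replicate, and that of TCF21 without replicate 2 of the empty vector or replicate 1 or 2 of TRF2 (adjusted p up to 0.138). With only these 6 libraries fitted neither call was made (adjusted p = 0.237 and 0.185).

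FOXF1 was higher in all senescent TRF2 libraries, at 415, 425 and 403 CPM against 372, 373 and 337, but its log2 difference of 0.20 did not pass (95% interval 0.05 to 0.35, adjusted p = 0.0838). With the offsets it passed, at 0.27 (adjusted p = 0.0388). TWIST2 at 23.7, 25.3 and 21.7 CPM overlapped with 24.0, 27.1 and 40.5 (log2 -0.38, adjusted p = 0.0939, and -0.12 without replicate 3 of the empty vector). TBX4 (log2 -0.96, adjusted p = 0.215), TBX3 (0.15, adjusted p = 0.392), TBX5 (0.04, adjusted p = 0.825) and TWIST1 (0.09, adjusted p = 0.676) did not pass. The members' median was 0.06, against -0.02 over all genes.

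The test of the difference between both senescence effects (an interaction term) called no member by edgeR's quasi-likelihood test, and 1.13% of all genes. Of the 15799 genes 2509 had an unadjusted p below 0.05, among them a single member: the rise of TBX2 was smaller with TRF2 by 0.66 on the log2 scale (SE 0.21, 95% interval -1.11 to -0.21, unadjusted p = 0.0068, adjusted p = 0.152). Without replicate 3 of the senescent empty-vector group this difference was -0.41 (adjusted p = 0.164). No other setting called a member in the interaction except the fit without a filter on low counts and the fit without replicate 1 of the senescent empty-vector group, each of which called TBX2.

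**Figure D4:**
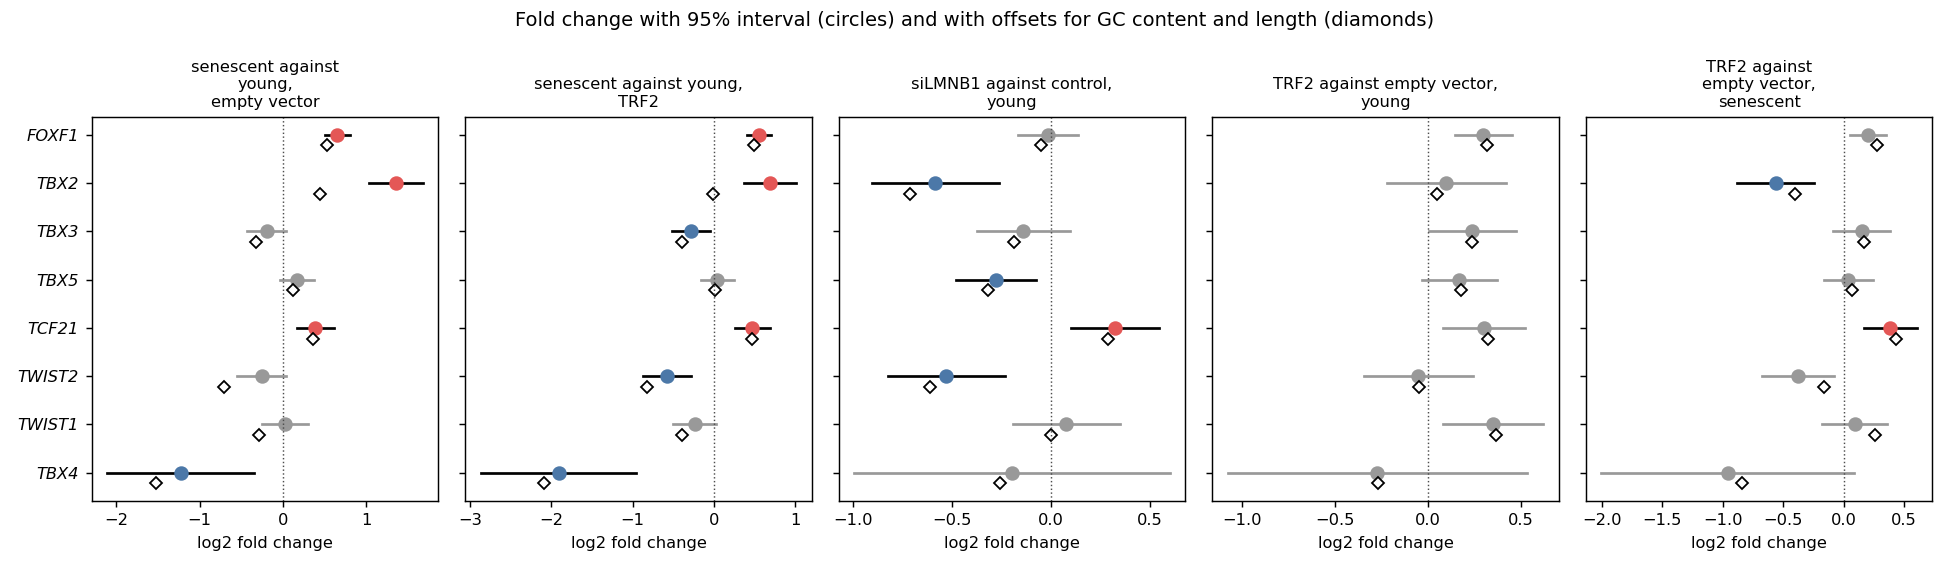
Log2 fold changes (x axes) of the 8 tested members in the 5 comparisons, with circles for the fitted values, lines for their 95% intervals, colour for an adjusted p below 0.05 and grey otherwise, and open diamonds for the values with the GC and length offsets. In senescence with the empty vector the TBX2 circle stands at 1.35 and its diamond at 0.44, while with siLMNB1 they stand at -0.58 and -0.71.

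Non-coding genes lie beside several members. Of 10 listed by name, 7 were present in the table and 5 were tested. Other non-coding genes near the members, such as LINC02875 beside TBX2, were not examined. FENDRR (ENSG00000268388, chr16:86474529-86509099, minus strand) is transcribed away from FOXF1, with starts 1428 bases apart, and is itself known as a regulator of mesenchyme. It was at 194, 190.1 and 184 CPM in young control cells and 235, 244 and 250.3 in senescent cells with the empty vector, without overlap. Like FOXF1 it rose, by 0.36 on the log2 scale with the empty vector (SE 0.07, adjusted p = 1.6e-04) and by 0.22 with TRF2 (adjusted p = 0.0090). With siLMNB1 it was at 182, 182 and 181 CPM and did not pass (log2 -0.06, adjusted p = 0.522).

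LINC01081, whose start lies 209224 bases from that of FOXF1, had the largest log2 difference of the 5. It was at 0.298 to 0.588 CPM in the 9 young libraries and at 8.26 to 11.6 in the 6 senescent ones. It rose by 4.58 on the log2 scale with the empty vector (SE 0.19, adjusted p = 7.8e-12) and by 4.53 with TRF2 (SE 0.18, adjusted p = 3.4e-12). These rises remained with the offsets (4.50 and 4.53). FENDRR and LINC01081 were thus higher in the same senescent libraries as FOXF1. Their starts are not the only ones near FOXF1. ENSG00000270020 (starts 13370 bases apart) and RPL7AP63 (14930 bases), both closer than LINC01081, were not examined.

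TBX2-AS1 (chr17:61393455-61411555, minus strand) spans TBX2 but shares no exonic base with it. It was at 2.94 to 4.72 CPM in young libraries, at 11.7, 16.8 and 26.2 in senescent cells with the empty vector and at 16.5, 11.9 and 14.96 with TRF2. It rose by 2.42 (SE 0.24, adjusted p = 2.3e-07) and by 2.01 on the log2 scale (SE 0.23, adjusted p = 1.7e-06), and by 1.12 in both with the offsets.

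TBX5-AS1 (chr12:114408131-114412832, plus strand) starts 311 bases from TBX5 in the opposite direction. It was at 55.4, 52.4 and 54.3 CPM in young control cells, at 40.1, 41.9 and 37.5 with siLMNB1 and at 41.7, 43.7 and 39.7 in senescent cells with the empty vector. It fell with siLMNB1, as TBX5 did, by 0.44 on the log2 scale (SE 0.09, adjusted p = 9.7e-04). It also fell in senescent cells, by 0.38 with the empty vector (adjusted p = 0.0012) and by 0.24 with TRF2 (adjusted p = 0.0215), where TBX5 itself did not pass. TARID, antisense to TCF21, passed in no comparison. Neither TBX3-AS1, at 0.035 to 0.285 CPM, nor LINC01082 was tested.

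**Figure D5:**
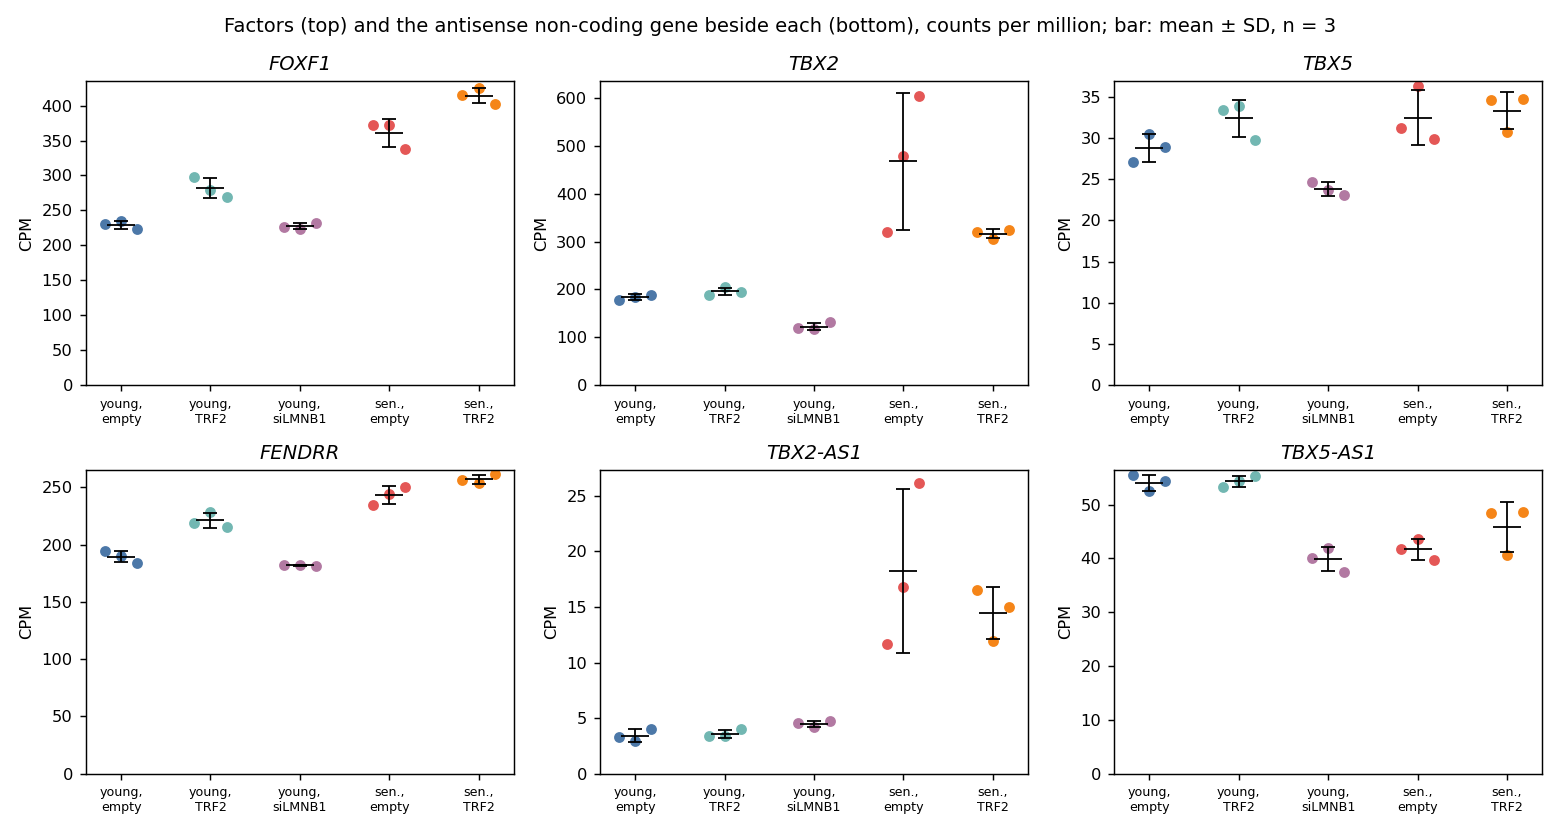
CPM (y axes from 0) of FOXF1, TBX2 and TBX5 in the top row and of FENDRR, TBX2-AS1 and TBX5-AS1, the antisense gene beside each, in the bottom row, with points for the 3 libraries of each condition and bars for mean and SD. FENDRR and TBX2-AS1 are higher in all 6 senescent libraries than in the 9 young ones, and TBX5-AS1 is lower in siLMNB1 and senescent libraries than in young control cells.

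The other genes of these pathways moved apart from the members in places. Beside the counts of each list, 32.7% of all genes tested were higher and 31.9% lower in senescence with the empty vector. In senescence with TRF2 these shares were 28.2% and 30.1%, with siLMNB1 16.4% and 16.1%, and with TRF2 in senescent cells 4.87% and 6.41%. Calls of the last comparison rest on the spread shared by all 15 libraries. Over all genes they numbered 722 to 4411 with a library left out, and nearly all were lost with only the libraries compared. Of 13 other T-box genes 3 were tested. TBX18, a factor of epicardial and mural cell mesenchyme, fell by 4.63 on the log2 scale in senescent cells with the empty vector (SE 0.37, adjusted p = 1.9e-08), from 1.97 to 2.73 CPM down to 0.0370 to 0.130, and by 3.87 with TRF2. TBX19 rose by 2.30 (adjusted p = 3.1e-04) and MGA, a repressor with a T-box domain, fell by 0.69 (adjusted p = 0.0044) with the empty vector, while neither passed with TRF2. None of the 3 passed with siLMNB1 or with TRF2 in young or senescent cells (edgeR), except that 1 rose with siLMNB1 under the offsets or without replicate 3 of the senescent empty-vector group.

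Among 25 tested of 30 other mesenchymal transcription factors, 5 rose and 11 fell in senescent cells with the empty vector (median log2 -0.23, against 0.02 over all genes). Of all genes tested 32.7% rose and 31.9% fell there. The homeobox factors PRRX1 and MEIS1 fell by 2.69 and 1.17, FOXP1 by 1.58 and MEIS2 by 1.68. PRRX1, a marker of limb and lung mesenchyme, went from 129 to 135 CPM down to 16.7 to 25.3. With the offsets none rose and 11 fell. With TRF2 7 rose and 8 fell, and with the offsets 3 and 11. With siLMNB1 none rose and 13 fell (median -0.44, against 0.04), beside 16.4% and 16.1% of all genes. Among the 13 were FOXL1 (by 0.88), FOXD1 (by 1.59), PITX1 (by 1.05) and MEIS2 (by 1.16), and 15 fell with the offsets. Without replicate 3 of the senescent empty-vector group 2 rose and 15 fell. FOXD1 went from 42.4 to 46.4 CPM down to 11.9 to 16.6 there. In senescent cells TRF2 went with a rise of 6 and a fall of 1 (FOXD1, by 0.77), and in young cells with no call among the 25.

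The bHLH partners TCF4 and TCF12, which pair with TCF21 and the TWIST factors, fell in senescent cells with the empty vector by 1.65 and 1.33, and the inhibitor ID3, which sequesters such partners, rose by 1.44. HAND2 fell by 3.36. In all 5 of the 9 tested rose and 3 fell, beside 32.7% and 31.9% of all genes, but 2 rose and 4 fell with the offsets. With TRF2 3 rose and 3 fell (2 and 5 with the offsets). With siLMNB1 ID4 rose by 1.30, MSC by 0.76 and ID3 by 0.58, and none fell, while 1 fell with the offsets or without replicate 3 of the senescent empty-vector group.

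Ligands and receptors of the lung mesenchyme moved in both directions. Of 24 tested of 29, 6 rose and 7 fell in senescent cells with the empty vector (4 and 10 with the offsets). Of all genes tested 32.7% rose and 31.9% fell there. WNT7B fell by 3.27, the hedgehog inhibitor HHIP by 4.34 and WNT2, a ligand from early lung mesenchyme, by 4.67, while the retinoic acid receptor RARA rose by 0.70. WNT2 was at 1.15 to 1.499 CPM in young control cells, and 4 reads were left over the 3 senescent libraries. With TRF2 10 rose and 5 fell (10 and 8 with the offsets). With siLMNB1 10 rose and 1 fell (8 and 4 with the offsets, 11 and 5 without replicate 3 of the senescent empty-vector group): WNT7B fell by 2.75, and BMP5 rose by 2.89 and BMP4 by 1.08. In senescent cells TRF2 went with a rise of 8, among them RSPO2 by 2.21, FGF9 by 2.13, PTCH1 by 0.89 and FGF7 by 0.43, and a fall of 1. These calls carry the limit given above for this comparison.

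Of 7 CDK inhibitor genes, among which are known targets of TBX2 and TBX3, 5 rose and 2 fell in senescent cells with the empty vector (3 and 1 with the offsets). CDKN2B rose by 1.19, CDKN2A by 1.20 and CDKN1A by 0.94, while CDKN2C fell by 2.74. TBX2 rose in the same comparison, where 64.7% of all genes passed, and a link between TBX2 and these genes was not tested. With siLMNB1 2 of the 7 rose and 3 fell, beside 16.4% and 16.1% of all genes.

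Over the 5 conditions together, FOXF1 ranked 1585 of 15799 genes by the F test (adjusted p = 2.0e-08), TBX2 1950 (adjusted p = 5.7e-08) and TCF21 6151 (adjusted p = 8.9e-05). TBX3 ranked 11136 (adjusted p = 0.0148), and TWIST1 did not pass (adjusted p = 0.0953). The patterns most like these 3 were sought among 13177 protein-coding genes, as the root mean square difference of centred log2 CPM over the 5 condition means. They were VGLL4 (0.026) and EIF4A2 (0.037) for FOXF1, CCDC9B (0.061) and NR1D1 (0.073) for TBX2, and PTK7 (0.025) and GCC2 (0.047) for TCF21.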

How the data were processed

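RNA-seq of 15 MRC-5 libraries was analysed. The authors trimmed the reads with Trimmomatic, aligned them to GRCh38 with STAR and deposited raw counts of reads on each gene. Release of the annotation and strandedness of the counting are not given in the sources used here. Genes were named with GENCODE 44. Of the 57272 entries, 279 have no entry there (0.0563% of counts) and 45 are chromosome Y copies of genes shared with X.

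Groups came from the labels. Counts were filtered with filterByExpr, TMM-normalized and fitted with edgeR 4.0.16 (limma 3.58.1, R 4.3.3), with 1 coefficient per condition. All 15 libraries shared 1 estimate of the spread per gene, so leaving out a library can change calls between other conditions. The quasi-likelihood test (two-sided) was adjusted by Benjamini-Hochberg over the 15799 genes kept, and a call is an adjusted p below 0.05. Differentially expressed genes (DEGs) also differed by 1 or more on the log2 scale in either direction, or by 0.58 with siLMNB1. Levels are TMM-scaled CPM, per kilobase of exon union where genes are compared (RPKM). Overlap of groups is described for named genes only, and the share of all genes without overlap was not counted. The library sizes of 26725885 to 43116046 and the 3 replicates per condition limit the precision.

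The members and lists were chosen with earlier results of these data known. The members were all named. Of each other list at most 4 called genes with the smallest adjusted p in a comparison were named, all tested T-box genes, and for the 3 members with the smallest F test p the 2 most similar protein-coding genes. Alternatives were RLE factors, DESeq2 1.42.0, no filter, only the libraries compared, a replicate block, per-library loess offsets for GC content and length (span 0.3, prior count 1), the fold change threshold, the longest transcript as gene length and each library left out. The offsets and the left-out library for the other lists and the neighbouring genes were chosen after seeing the data. The test was also run on simulated counts with the spread of the young control libraries. The senescent empty-vector libraries spread more widely, so that run does not give the error rate of the senescence comparisons. Replicates were not identical: counts of each pair differed by more than sampling noise. Sequences were read and figures drawn in Python 3.11.15 (matplotlib 3.10.9, pandas 2.3.3, numpy 2.4.6).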

Additional observations from a re-analysis of the deposited data

Results flagged for a closer look

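Between cells with the empty vector and with TRF2, the fall of 3 of 8 proliferation genes tested differed in senescence (edgeR's quasi-likelihood test, interaction term). Only the members and listed genes were searched for such differences, while 179 of all genes (1.13%) passed. In the senescent state the vector and the number of divisions cannot be told apart. The fall was larger with TRF2, by -1.002 on the log2 scale for CDK1 (adjusted p = 0.0166), by -0.80 for BUB1 (adjusted p = 0.0297) and by -0.79 for TOP2A (adjusted p = 0.0417). No lung mesenchyme factor differed in this way, with TBX2 nearest at -0.66 (adjusted p = 0.152). Groups of 3 libraries are too small for a test of single deviating libraries.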

How the results depend on the processing

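The direction and the call of the members' log2 fold changes were kept in 987 cases over the alternatives, while 28 lost a call, 22 gained one and 18 changed sign. For senescence with the empty vector, where 4 members were called, the offsets for GC content and length with the replicate block called 7, the fold change threshold 2, and leaving out a library 3 to 5. With TRF2 (6 called) the threshold gave 1, and leaving out a library 5 to 6. With siLMNB1 (4 called) the threshold gave 1, and leaving out a library 2 to 4. For TRF2 in young cells (0 called by edgeR, 4 members with unadjusted p below 0.05) DESeq2 called 1, the fit of only the libraries compared 2, and leaving out a library 0 to 1. For TRF2 in senescent cells (2 called) only the libraries compared gave 0, the threshold 0 and leaving out a library 0 to 4. The interaction (0 called by edgeR, 1 with unadjusted p below 0.05) gave 1 without a filter and 0 to 1 with a library left out.

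The following values changed sign. In senescence with the empty vector TWIST1 (0.02) was -0.28 with the offsets, -0.28 with the offsets and the replicate block (adjusted p = 0.0328), and -0.0907 to 0.15 with a library left out. In senescence with TRF2 TBX2 (0.69, called) was -0.0098 with the offsets and -0.0088 with the block added, and TBX5 ranged from -0.0179 to 0.0887 with a library left out. With siLMNB1 TBX4 ranged from -0.331 to 0.0086 and FOXF1 from -0.0352 to 0.0070, and with TRF2 in senescent cells TBX5 from -0.0147 to 0.127 and TWIST1 from -0.0435 to 0.186. In the interaction TBX3 ranged from -0.175 to 0.0967 and TCF21 from -0.0195 to 0.168. The cause was not tested.

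Over all genes, senescence with the empty vector called 10217 (4499 by the threshold), senescence with TRF2 9211 (3794) and siLMNB1 5137 (8019 with only the libraries compared, 2893 by the threshold, 3969 to 7182 with a library left out). TRF2 in young cells called 28 (170 by DESeq2, 256 without a filter, 474 with only the libraries compared, 53 with the offsets, 44 with the block added, 9 by the threshold, 1 to 320 with a library left out). TRF2 in senescent cells called 1782 (2 with only the libraries compared, 480 by the threshold, 722 to 4411 with a library left out), and the interaction 179 (550 by DESeq2, 955 without a filter, 8 with only the libraries compared, 328 with the offsets, 325 with the block added, 110 by the threshold, 6 to 2089 with a library left out).

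The replicate block alone changed no count of members called. Deviations of same-numbered libraries correlated at -0.105 to 0.220 over 30 pairs (median 0.003). Those of libraries with different numbers correlated at -0.143 to 0.089 over 60 pairs (median -0.002). Low correlations cannot show that samples are unpaired, so whether the numbers pair the samples stays undecided.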
